A study of Mus musculus and blank sample with 191 samples.

Results

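In the mouse uterus, 9 genes of steroid hormone signalling were examined: the receptors Esr1, Esr2, Pgr, Nr3c1 and Nr3c2, the receptor co-chaperones Fkbp4 and Fkbp5, and the hormone-responsive genes Greb1 and Tsc22d3. They were taken by symbol from the 19962 targets of a spatial whole-transcriptome assay (GeoMx, in which probes are released by light from chosen regions of a tissue section and sequenced), and all 9 were among the 14881 targets that the authors kept. The samples were cores of fixed, paraffin-embedded uterus from female mice, and a pathologist chose the regions from morphology and from staining for pan-cytokeratin and alpha smooth muscle actin. PV mice (PV/N) carried 1 copy of a knocked-in frameshift mutation that makes thyroid hormone receptor alpha 1 a dominant negative, and WT mice (N/N) carried none. The comparison between them asks what the mutant receptor does to the endometrium. The 6 PV mice were aged 2.4 to 6.3 and the 8 WT mice 4.0 to 9.0, in numbers read as months, so age and genotype partly coincided. Mice were numbered by age within a genotype, from PV1 to PV6 and from WT1 to WT8. The regions came in 2 compartments, stroma and epithelium, and the epithelium label held surface and gland epithelium together. The study's methods describe females matched at metestrus of the estrous cycle, while the labels of these regions give no stage, and no treatment is given for either group. The knock-in itself was not checked here, since the position of the Thra probe was not used.

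Steroid receptors are transcription factors that wait in a complex with the chaperone Hsp90 and its helpers, bind their hormone, and then switch genes on or off. In the uterus, estrogen acts through estrogen receptor alpha (Esr1), drives growth of the epithelium and raises the progesterone receptor (Pgr), and progesterone restrains that growth and prepares the stroma for implantation. The co-chaperone Fkbp4 is known to be needed for progesterone receptor function in the mouse uterus, while Fkbp5 is a glucocorticoid-induced brake on the glucocorticoid receptor (Nr3c1).

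All values below come from the 95 regions of the first plate, 60 of epithelium and 35 of stroma, with counts summed per mouse and compartment. Total counts per region ran from 61691 to 3130397 (median 653387), and the highest count in a no-template control was 1. Epithelium was present for 14 mice and stroma for 13, since WT4 had no stroma region, and PV2 had 1 region per compartment. A score of epithelial markers (Krt8, Epcam and others) minus fibroblast markers (Dcn, Col1a1 and others) separated the 60 epithelium regions (0.33 and above) from the 35 stroma regions (-2.68 and below). A cutoff midway between these 2 values, set from the first-plate labels, put 38 of 57 epithelium and 19 of 37 stroma regions of the second plate where their labels do. The scores of the 2 labels overlapped there (-6.71 to 2.52 and -6.23 to 2.84). Values from the second plate are therefore given only where they turn a result. Levels are log2 CPM, counts scaled to a common library total. Each gene had 1 probe, so levels were not ranked between genes. The median region carried Esr1 at 66.7 times the negative-probe level in epithelium and 37.1 times in stroma, and Fkbp4 at 61.2 and 17.3 times. Pgr stood at 14.4 and 21.9 times, Nr3c1 at 18.7 and 24.2 times and Tsc22d3 at 7.49 and 8.28 times. Greb1 stood at 7.59 times in epithelium but 2.87 times in stroma. Nr3c2 (2.69 and 2.87 times), Fkbp5 (2.86 and 3.15 times) and Esr2 (1.86 and 2.08 times) lay close to background, as did Greb1 in stroma. Esr2 passed 2 times the negative probe in 25 of 60 epithelium and 20 of 35 stroma regions.

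**Figure D1:**
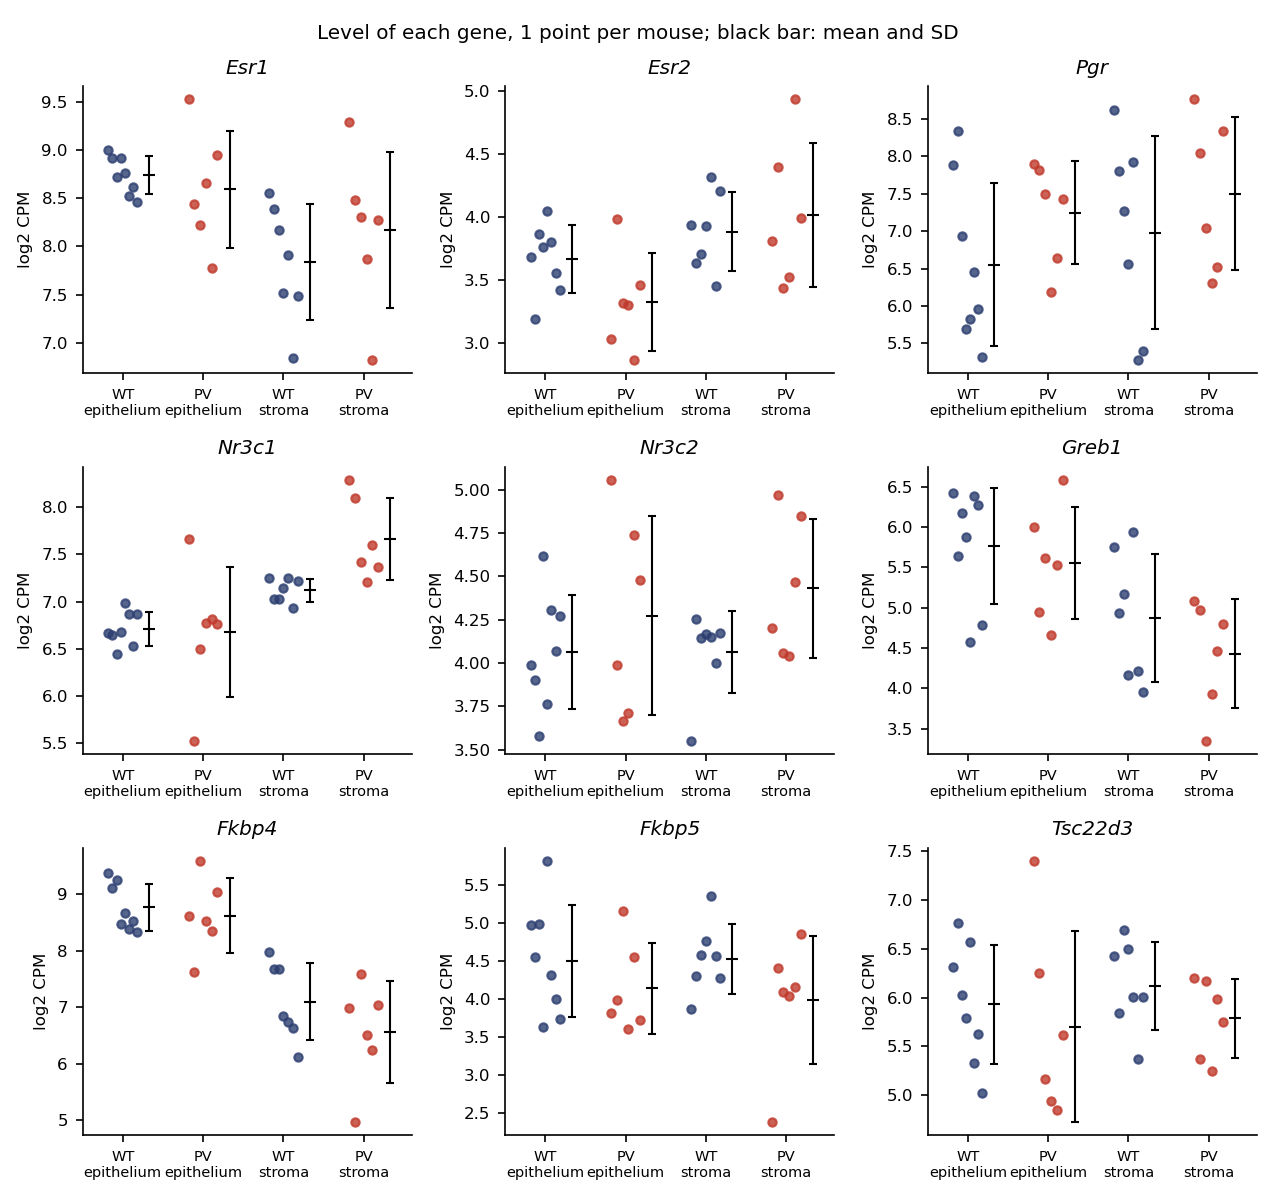
Level of each of the 9 genes in each mouse (log2 CPM, vertical axis), by compartment and genotype, with 1 point per mouse and a line at the group mean. PV and WT points overlapped for every gene in both compartments, while Fkbp4 in epithelium lay above Fkbp4 in stroma in 13 of 13 mice.

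The genes were first compared between compartments within the 13 mice that had both. Fkbp4, Greb1 and Esr1 were higher in epithelium, Nr3c1 and Esr2 were higher in stroma, and Pgr, Nr3c2, Fkbp5 and Tsc22d3 did not pass the test. This was 5 of 9 genes, where 63% of all 14881 targets passed at an adjusted p of 0.05 by edgeR's quasi-likelihood test with the mouse as a block. By direction, 3 of 9 were higher in epithelium against 28.4% of all targets, and 2 of 9 were lower against 34.6%, so a compartment difference was no rarity in this tissue. The 2 compartments differ in cell types, and fewer cells of a type cannot be told apart from less RNA per cell in such regions.

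Among the receptors, Esr1 in epithelium ran from 7.77 to 9.53 with a median of 8.55 in PV mice, and from 8.47 to 9.00 with a median of 8.74 in WT mice. In stroma it ran from 6.82 to 9.29 (median 8.29) in PV mice and from 6.84 to 8.55 (median 7.91) in WT mice. Esr1 was thus more uniform in WT epithelium than elsewhere, with an SD of 0.20 there against 0.60 in WT stroma. The difference of epithelium minus stroma was 0.67 ± 0.13 on the log2 scale (SE, n = 13 mice, adjusted p = 2.04e-04 by edgeR), or 1.59-fold, and 11 of 13 mice showed it.

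Nr3c1, the glucocorticoid receptor, went the other way. Its epithelium values had a median of 6.77 in PV mice (5.52 to 7.66) and 6.68 in WT mice (6.45 to 6.99). Its stroma values had a median of 7.51 in PV mice (7.20 to 8.29) and 7.14 in WT mice (6.93 to 7.25). All 13 mice had more Nr3c1 in stroma, by a log2 difference of 0.15 to 2.58 per mouse, where the largest gap belonged to PV2 with 3 counts in its epithelium. The epithelium minus stroma difference was -0.58 ± 0.11 (SE, n = 13, adjusted p = 1.32e-04 by edgeR), which is 1.49-fold higher in stroma.

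Esr2, the second estrogen receptor, was 1.35-fold higher in stroma (log2 -0.44 ± 0.14, n = 13, edgeR adjusted p = 0.0123), in 10 of 13 mice. With the negative-probe level subtracted the Esr2 difference did not pass (adjusted p = 0.0752 by edgeR). Pgr was 1.25-fold higher in stroma in the fit without passing (log2 -0.32 ± 0.16, 95% interval -0.66 to 0.02, adjusted p = 0.0899), and 9 of 13 mice had that direction. The Pgr difference passed with upper-quartile scaling (log2 -0.45, adjusted p = 0.0207), which also moved the median of all targets from -0.05 to -0.18, and with limma on the authors' normalised values (log2 -0.56, adjusted p = 0.00474). Nr3c2, the mineralocorticoid receptor, differed by -0.11 ± 0.12 (adjusted p = 0.441 by edgeR).

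Of the co-chaperones, Fkbp4 gave the widest separation of the 9. In epithelium it ran from 7.62 to 9.59 (median 8.57) in PV mice and from 8.33 to 9.38 (median 8.60) in WT mice. In stroma it ran from 4.97 to 7.59 (median 6.74) in PV mice and from 6.12 to 7.97 (median 6.85) in WT mice. Each of the 13 mice had more Fkbp4 in epithelium, by a log2 difference of 1.40 in WT1 to 2.65 in PV2. The fitted difference was 1.83 ± 0.10 (SE, n = 13, adjusted p = 1.54e-11 by edgeR), or 3.55-fold. On the second plate alone, where fewer regions had the markers of their label, Fkbp4 differed by -0.01 in all mice and by -0.80 in PV mice, and 0 of the 9 genes passed there. Its relative Fkbp5 showed no such separation, at 0.10 ± 0.21 (95% interval -0.35 to 0.54, adjusted p = 0.715 by edgeR), with 7 mice higher in epithelium and 6 in stroma.

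Of the responsive genes, Greb1, which is induced by estrogen, was 2.04-fold higher in epithelium (log2 1.03 ± 0.15, n = 13, edgeR adjusted p = 1.25e-05) in 12 of 13 mice, all but PV2. Its median was 5.57 in PV epithelium and 6.02 in WT epithelium against 4.63 in PV stroma and 4.94 in WT stroma, and the 2 compartments overlapped when mice were not matched. Tsc22d3, which encodes the glucocorticoid-induced leucine zipper, differed by -0.22 ± 0.18 (95% interval -0.60 to 0.15, adjusted p = 0.282 by edgeR).

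**Figure D2:**
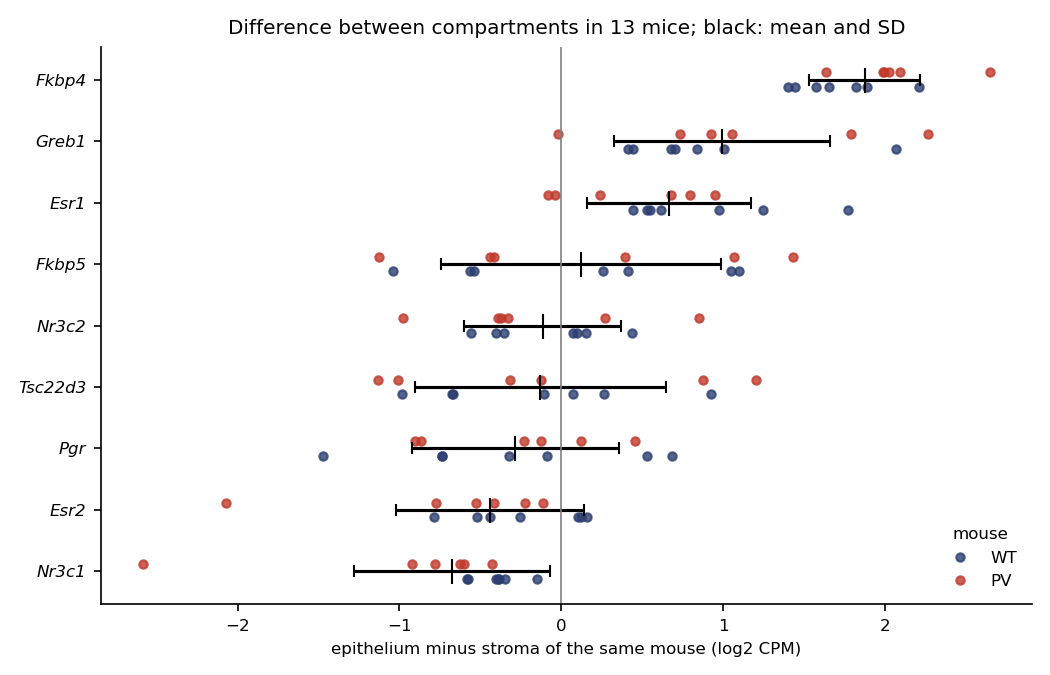
Epithelium minus stroma difference of each gene (log2 CPM, horizontal axis), with 1 point per mouse and a black mark at the mean with its SD. Fkbp4 stands farthest to the right with a mean of 1.88, and Nr3c1 lies left of 0 in 13 of 13 mice. The SD bars of Esr2, Pgr, Nr3c2, Fkbp5 and Tsc22d3 cross 0.

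Within genotypes, 4 of the 9 genes passed in WT mice (48.8% of all targets did) and 4 in PV mice (49.4%). Fkbp4 (log2 1.71 in WT and 1.98 in PV), Greb1 (0.80 and 1.37) and Nr3c1 (-0.41 and -0.79) passed in both by edgeR. In WT mice Nr3c1 did not pass without the filter on targets or with filterByExpr (-0.34, adjusted p = 0.0618), with both plates (-0.25, adjusted p = 0.153), or, like Greb1, without the mouse as a block (adjusted p = 0.10 for Nr3c1 and 0.0559 for Greb1, by edgeR). With both plates 0 of the 9 passed in PV mice. Esr1 passed in WT mice (0.86 ± 0.17, adjusted p = 3.58e-04) and not in PV mice (0.43 ± 0.18, adjusted p = 0.0582), and 2 of the 6 PV mice had more Esr1 in stroma. Esr2 passed in PV mice alone (-0.56 ± 0.23, adjusted p = 0.0466, and from 0.0359 to 0.200 with 1 mouse left out). Both PV results turned with the processing: DESeq2 called Esr1 (0.46, adjusted p = 0.0385) and not Esr2 (adjusted p = 0.0666), and so did edgeR without the filter on targets (0.52, adjusted p = 0.0323, for Esr1 and adjusted p = 0.110 for Esr2). The test of the difference between genotypes passed for none of the 9 and for 0% of all targets, with 7.16% of all targets and 0 of the 9 at an unadjusted p under 0.05. DESeq2 (0.00672% of all targets) and limma called 0 of the 9. The lowest p among the 9 belonged to Nr3c1 (difference -0.39 ± 0.20, unadjusted p = 0.0713, adjusted p = 0.726 by edgeR), Greb1 (0.56 ± 0.30, unadjusted p = 0.0729) and Esr1 (-0.42 ± 0.25, unadjusted p = 0.105). The Esr1 pattern is therefore not shown to be unlike in the 2 genotypes.

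PV and WT mice were then compared within each compartment. In epithelium (6 PV and 8 WT mice) none of the 9 genes passed, nor did any other target by edgeR: 0% were called, and 8.22% of all targets and 1 of the 9, Esr2, had an unadjusted p under 0.05. DESeq2 called 28 of 14881 targets (0.188%) and 0 of the 9, and limma called 0 of the 9. The size of the difference had a median of 0.15 over the 9 genes and 0.17 over all targets on the log2 scale. Esr1 differed by -0.04 ± 0.23 (95% interval -0.52 to 0.44), so a 2-fold difference, 1 on the log2 scale, lay outside the interval. The intervals of Nr3c1 (0.15 ± 0.20, -0.28 to 0.57), Nr3c2 (0.20 ± 0.25, -0.32 to 0.72) and Fkbp4 (-0.04 ± 0.26, -0.60 to 0.51) also held no 2-fold difference. Nr3c2 lay close to background, and the part of that floor in its interval was not tested. The interval of Pgr did (0.39 ± 0.45, -0.55 to 1.34), as did that of Fkbp5 (-0.32 ± 0.37, -1.10 to 0.46). Greb1 differed by -0.15 ± 0.33 (-0.84 to 0.55) and Tsc22d3 by -0.13 ± 0.40 (-0.96 to 0.71), with no 2-fold difference in either interval. Esr2 had the lowest p (-0.41 ± 0.18, 95% interval -0.79 to -0.02, unadjusted p = 0.0416, adjusted p = 0.593 by edgeR), on 1 to 95 counts per mouse. On mean log2 CPM the Esr2 difference was -0.34, with an exact permutation p over mice of 0.0793.

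Pgr in epithelium ran from 6.18 to 7.90 with a median of 7.46 in PV mice and from 5.31 to 8.34 with a median of 6.21 in WT mice. All PV values lay inside the WT range. With age as a covariate the Pgr difference was -0.04 in epithelium and -0.08 in stroma, against 0.39 and 0.35 without it. Epithelial regions of PV mice also carried lower gland markers (Foxa2 and others, 3 of 5 kept, mean log2 CPM 4.41 against 5.35, exact permutation p = 0.0383). Their squamous markers were higher by 0.83 (Krt13 and Krt15, 2 of 7 kept, exact permutation p = 0.0183). Krt5, Krt14, Krt6a, Krt10 and Trp63 were not kept and were not compared. The authors' filter took both genotypes together, so a marker could be kept through the genotype in which it is high. The p-values of these 2 scores do not allow for that. The summed level of the kept gland markers was 56.0 to 154.6 CPM in PV and 52.1 to 632.5 CPM in WT epithelium. That of the kept squamous markers was 17.7 to 222.0 CPM in PV and 16.8 to 30.3 CPM in WT epithelium. Their part in the values of the 9 genes was not tested. The marker p-values, here and for stroma below, are unadjusted, and scores of other cell types were also tested in both compartments. The fibroblast markers were lower by 0.55 in PV epithelium (exact permutation p = 0.0823), and with their score as a covariate the Fkbp4 difference was 0.33 and that of Esr1 0.06.

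In stroma (6 PV and 7 WT mice) again none of the 9 genes and 0% of all targets passed, while 3.52% of all targets and 2 of the 9, Nr3c1 and Greb1, had an unadjusted p under 0.05 by edgeR. DESeq2 (0.0134% of all targets) and limma called 0 of the 9. The size of the difference had a median of 0.39 over the 9 genes against 0.14 over all targets. Nr3c1 in the PV mice was, from PV1 to PV6, 8.29, 8.10, 7.42, 7.20, 7.60 and 7.36, against 6.93 to 7.25 in the WT mice with a median of 7.14. All 6 PV mice lay above the WT median and 1 of them, PV4, within the WT range, and the youngest mice, PV1 and PV2, were the highest. The difference was 0.57 ± 0.21 (unadjusted p = 0.0130, adjusted p = 1.00 by edgeR), and an exact two-sided permutation test over the 1716 divisions of the mice gave p = 0.00233 for this gene alone. With age as a covariate it was 0.41 (unadjusted p = 0.104 by edgeR), and on the second plate alone it was -0.04. In PV stroma the endothelial markers were higher (5 of 5 kept, mean log2 CPM 5.79 against 5.37, exact permutation p = 0.0245). Their summed level was 247.5 to 613.5 CPM in PV and 185.0 to 296.1 CPM in WT mice, and their part in the Nr3c1 value was not tested.

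Greb1 in stroma ran from 3.35 to 5.08 (median 4.63) in PV mice and from 3.95 to 5.94 (median 4.94) in WT mice, on 3 to 82 counts per mouse, and the groups overlapped. The difference was -0.80 ± 0.37 (unadjusted p = 0.0461, adjusted p = 1.00 by edgeR). On mean log2 CPM it was -0.44, with an exact permutation p over mice of 0.302. The other 7 genes gave Esr1 0.40 ± 0.33, Esr2 -0.02 ± 0.26, Pgr 0.35 ± 0.50, Nr3c2 0.26 ± 0.38, Fkbp4 -0.39 ± 0.33, Fkbp5 -0.44 ± 0.28 and Tsc22d3 -0.32 ± 0.22 (log2, SE). The Esr1 and Pgr values rested on PV1, without which they were 0.10 and 0.01. Simulated data of this design held 100 targets changed by 1 and 100 changed by 2 on the log2 scale, among 14881. The edgeR test recovered 57% and 100% of them in stroma, and 65% and 98% in epithelium. False calls made up 6.55% of the calls in stroma and 4.12% in epithelium. So many true changes make the adjusted threshold easier to reach than in the real genotype comparisons, where no target passed. The recovered shares therefore do not give the chance of detecting a change in a single gene here.

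**Figure D3:**
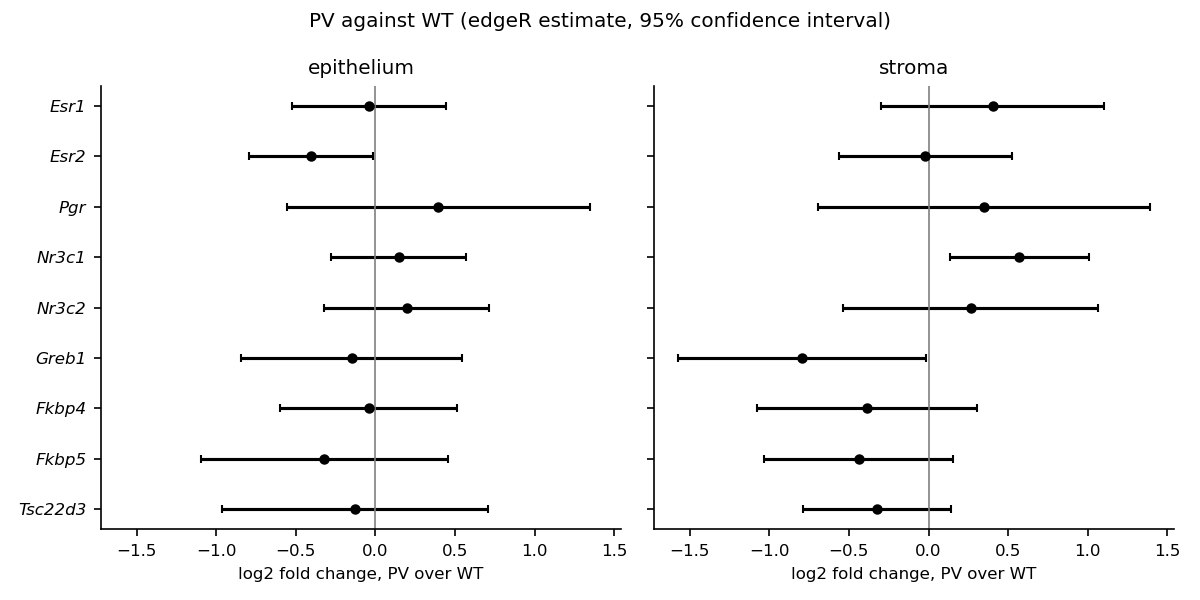
PV minus WT difference of each gene (log2 scale, horizontal axis) in epithelium and in stroma, as the fitted value with its 95% interval. None passed after adjustment over 14881 targets, and the stromal interval of Nr3c1, from 0.13 to 1.01, and of Greb1, from -1.57 to -0.02, did not cross 0 before it.

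Pgr differed most between mice of 1 genotype. Its SD between mice within a genotype was 0.94 in epithelium, larger than that of 97.0% of all targets, and 1.17 in stroma, larger than 99.3%, where the median target had 0.43 and 0.45. In stroma 84.7% of the variance of Pgr between regions lay between mice, against 33.2% for the median target. Nr3c1, at 0.31 in stroma, was among the steadier targets, with 15.4% of all having a smaller SD.

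Pgr in WT mice was then set against age, after the values had been seen. In the order of age from 4.0 to 9.0 months, WT stroma held 8.63, 7.81 and 7.26 up to 5.0 months, then 6.56 and 7.93 in the pair of mice aged 6.3 months, 5.28 at 7.4 and 5.40 at 9.0 months. WT epithelium held 7.89, 8.34, 6.94, 5.69, then 5.82 and 6.46 at 6.3 months, 5.96 and 5.31. The oldest mouse was lowest in epithelium and next to lowest in stroma, where WT7 rested on 15 counts. In a fit of both genotypes, the slope in WT mice was -0.56 ± 0.13 per month in epithelium (unadjusted p = 4.01e-04, adjusted p = 0.114 by edgeR) and -0.62 ± 0.17 in stroma (unadjusted p = 0.00248, adjusted p = 0.122). None of the 9 genes passed there, against 0.047% of all targets in epithelium and 0.538% in stroma, while 2 and 4 of the 9 had an unadjusted p under 0.05, against 11.8% and 13.4% of all targets. DESeq2, which called 1.61% and 3.45% of all targets, called Pgr in both compartments (adjusted p = 0.00510 and 0.0105). With WT mice fitted alone, where 1.46% and 5.36% of all targets passed, edgeR called Pgr in both (adjusted p = 0.0443 and 0.00611), as it did without PV4 in epithelium (0.0318) and without PV6 in stroma (0.0427).

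Fkbp4 in stroma had a WT slope of -0.38 ± 0.11 per month (adjusted p = 0.124 in the fit of both genotypes and 0.00347 with WT mice alone, by edgeR). Its WT values were 7.97 in WT1 and 6.12 in WT8, and the 3 youngest WT mice were above the other 4. DESeq2 called it (adjusted p = 0.00948), and with both plates the slope was -0.07. Esr1 in stroma had a slope of -0.26 ± 0.11 (adjusted p = 0.314 by edgeR), which was -0.46 without WT8. Greb1 in stroma had a slope of -0.30 ± 0.13 (unadjusted p = 0.0374, adjusted p = 0.333) and Tsc22d3 in epithelium -0.27 ± 0.12 (adjusted p = 0.398). In PV mice, which spanned 2.4 to 6.3 months, the Pgr slopes were -0.18 ± 0.15 and -0.16 ± 0.17, and the difference between genotypes did not pass (0.38 ± 0.19, unadjusted p = 0.0663, and 0.45 ± 0.24, unadjusted p = 0.0727, by edgeR). For Fkbp4 in stroma that difference was 0.40 ± 0.17 (unadjusted p = 0.0345, adjusted p = 0.744).

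Split at 5 months, the PV minus WT difference of Pgr in epithelium was -0.67 ± 0.46 in younger mice (4 PV and 2 WT) and 0.96 ± 0.42 in older ones (2 PV and 6 WT). The change between classes was 1.63 ± 0.62 (unadjusted p = 0.0188, adjusted p = 1.00 by edgeR), and 0% of all targets passed, with 3.61% at an unadjusted p of 0.05. Without PV6 it was 1.22 (unadjusted p = 0.118). In stroma the class values were -0.47 ± 0.70 and 0.85 ± 0.66, with a change of 1.32 ± 0.97 (unadjusted p = 0.191 by edgeR), which ran from 0.17 without PV6 to 1.96 without PV1.

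**Figure D4:**
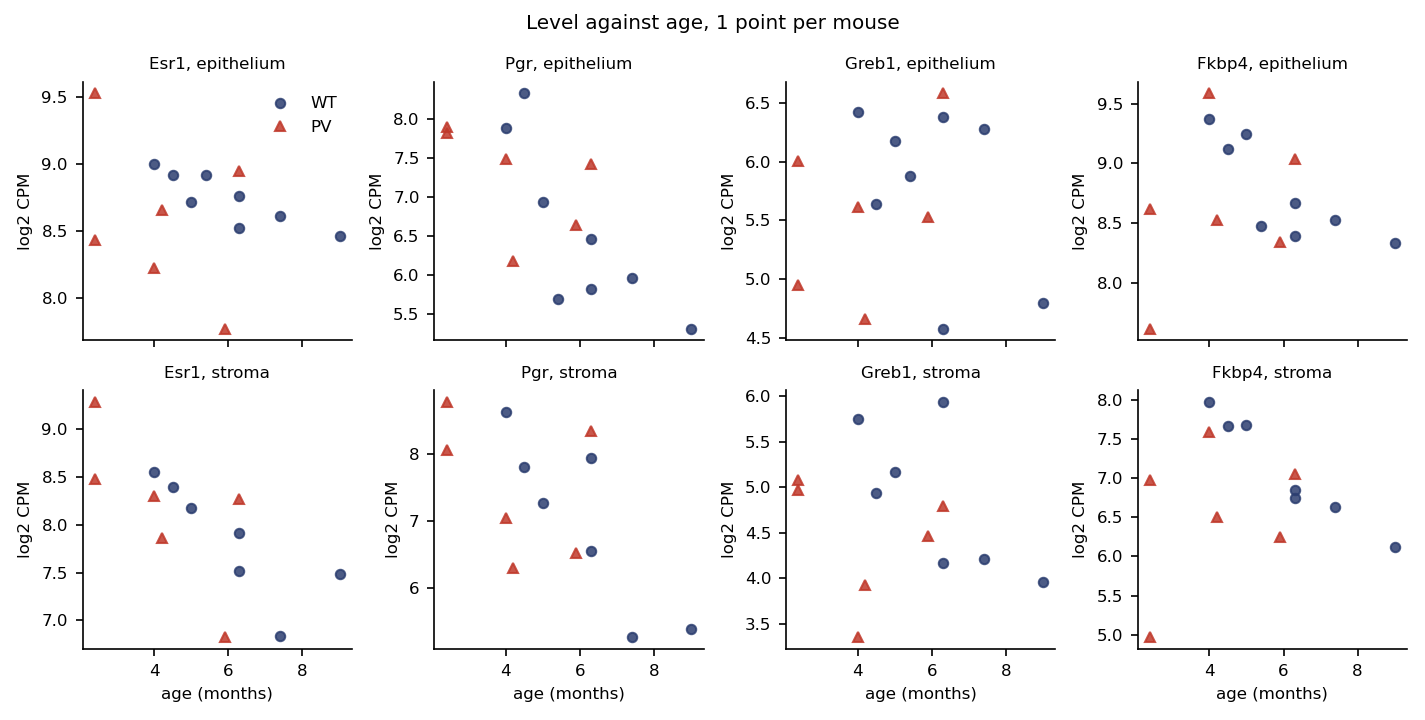
Level of Esr1, Pgr, Greb1 and Fkbp4 (log2 CPM, vertical axis) against age (months, horizontal axis) in each mouse, by compartment and genotype. WT values of Pgr run from 8.63 at 4.0 months to 5.40 at 9.0 months in stroma, and the Pgr slopes in PV mice, -0.18 and -0.16 per month in epithelium and stroma, did not differ from the WT slopes past the test.

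Estrogen receptor alpha binds the estrogen response element, GGTCA and TGACC with 3 bases between them, or its half-site GGTCA, near many of its target genes, and Pgr and Greb1 are among the best known of them. In RefSeq on GRCm38.p6, Esr1 lies at chr10:4611989-5005633, Pgr at chr9:8898900-8968611, Greb1 at chr12:16670615-16801394 and Fkbp4 at chr6:128430103-128438656. The positions of the assay's probes were not used here. Over the 250 bases before a listed start, the half-site on either strand occurred in 35.2% of 32851 promoters and the full element in 0.0639%. The windows of Esr1 and Pgr held neither, and that of Greb1 held 1 half-site and no full element. It is shown as the only half-site found in the 3 windows, with its letters, read on the opposite strand, in capitals.
Greb1, minus strand, chr12:16800957-16800986: ccaagcaacaaaTGACCtctgtccccggag
The first base of the half-site lies at position -88 from 1 of the 2 starts listed for Greb1. That window and the one searched for Pgr (chr9:8899583-8899832) lie inside the gene spans given above, so neither lies before the outermost end of its gene. A match of 5 letters is a description of the sequence, and no binding was measured.

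Whether these genes moved together from mouse to mouse was tested for 8 pairs in each compartment, 16 relations in all, with each genotype's mean removed. In stroma, Pgr went with Esr1 (r = 0.82, rho = 0.79, permutation p = 4.30e-04, adjusted p = 0.00528, n = 13) and with Greb1 (r = 0.83, rho = 0.84, permutation p = 6.60e-04, adjusted p = 0.00528, n = 13). Without the 2 mice farthest from the median of the first gene, r was 0.82 and 0.78. Both relations had the same sign within each genotype (0.80 in PV and 0.90 in WT for Esr1 with Pgr, 0.72 and 0.89 for Pgr with Greb1). In epithelium the same pairs had r = 0.39 (permutation adjusted p = 0.339, n = 14) and r = 0.44 (permutation adjusted p = 0.30), and the difference between compartments was not tested.

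Removal of age from these pairs was a step added after seeing the data. With age removed as well, Pgr with Greb1 had r = 0.78 (permutation adjusted p = 0.0234) and Esr1 with Pgr had r = 0.65 and no longer passed (permutation adjusted p = 0.118). Pgr with Greb1 also missed the threshold without removal of the genotype means (r = 0.70, permutation adjusted p = 0.0688) and with both plates (r = 0.63, permutation adjusted p = 0.0802). The pairs of Pgr with Fkbp4 (r = 0.44 and 0.40 in epithelium and stroma), Pgr with Fkbp5 (0.28 and -0.19), Nr3c1 with Fkbp5 (-0.05 and -0.50), Nr3c1 with Tsc22d3 (0.19 and 0.25), Fkbp5 with Tsc22d3 (0.17 and -0.30) and Esr1 with Greb1 (0.29 and 0.51) did not pass, with permutation adjusted p of 0.30 and above. With the log2 total count removed, Pgr with Fkbp4 in epithelium passed (r = 0.68, permutation adjusted p = 0.0426).

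**Figure D5:**
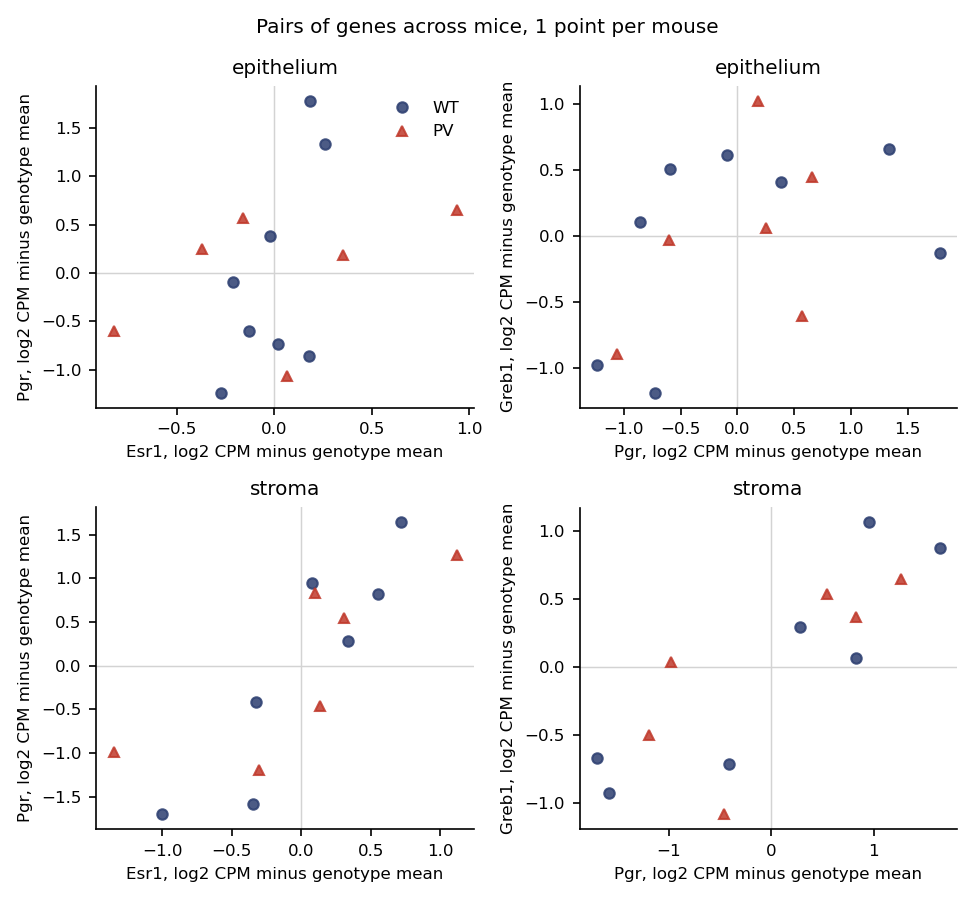
Deviation from the genotype mean (log2 CPM) of Pgr (vertical axis) against that of Esr1 (horizontal axis), and of Greb1 (vertical axis) against that of Pgr (horizontal axis). Each has 1 point per mouse, in epithelium and in stroma. The points form a rising band in stroma (r = 0.82 and 0.83 over 13 mice) and a looser cloud in epithelium (r = 0.39 and 0.44 over 14 mice).

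Within mice, the regions of 1 compartment were compared after removal of each mouse's mean, over 59 epithelium regions of 13 mice and 32 stroma regions of 10 mice that share libraries and cores. These correlations are descriptions. Each closest target is the highest of all kept targets, and the value such a maximum reaches by chance was not estimated. Esr2, Nr3c2 and Fkbp5, and Greb1 in stroma, lay close to background, with counts down to 1 per region. The part of that floor and of the scaling between regions in their correlations was not tested. In epithelium Tsc22d3 went with Pgr (r = 0.64) and Fkbp4 with Fkbp5 (r = 0.48). In stroma Esr1 went with Pgr (r = 0.51) and against Fkbp5 (r = -0.51). Pgr and Greb1, which tracked each other between mice, had r = -0.02 between stroma regions. Greb1 had a median of 9 counts in those regions, so that value does not show that the 2 genes part between regions. The target most like Esr1 was Tns1 in epithelium (r = 0.88) and Mapk8ip1 in stroma (r = 0.89). Pgr was most like Nrep in epithelium (r = 0.75) and Col6a1, a collagen VI chain, in stroma (r = 0.86), where Col6a2 was also among its closest 3 (r = 0.79). The 3 targets closest to Fkbp4 in epithelium were the histone genes H3c1, H2ac10 and H4c11 (r = 0.80, 0.79 and 0.79), and its closest in stroma was Rbm3 (r = 0.84). Tsc22d3 was closest to Tmem254a (r = 0.79), with Sox17 also among its closest 3 (r = 0.76), in epithelium and to Cavin3 (r = 0.81) in stroma. Nr3c1 was closest to Gm46963 (r = 0.59) and Srsf3 (r = 0.82), Greb1 to Mycl (r = 0.72) and Gm1141 (r = 0.76), Fkbp5 to Mrpl33 (r = 0.69) and Bloc1s4 (r = 0.76), Nr3c2 to Pgap1 (r = 0.64) and Imp3 (r = 0.71), and Esr2 to Kdelr3 (r = 0.54) and Tarbp1 (r = 0.80), in epithelium and stroma in that order.

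The surrounding pathway was read from 8 gene lists, to be set against the 63% of all targets that passed between compartments, 28.4% higher and 34.6% lower in epithelium. No test of a list was run. Like Fkbp4, 13 of 18 receptor chaperones were higher in epithelium and 0 lower, with a median of 0.43 against -0.05 for all targets on the log2 scale. They included Hspa4 (1.16), Bag1 (1.05) and St13 (1.03), which work with Hsp70. The other Fkbp genes did not, with 2 of 13 higher (Fkbp2 0.66 and Fkbp8 0.47) and 7 lower, led by Fkbp7 (-1.87), Fkbp10 (-2.06) and Fkbp9 (-1.45), folding enzymes of the endoplasmic reticulum. Receptor coregulators were higher in 8 and lower in 3 of 18 (median 0.20), so that 61.1% of them and 69.2% of the other Fkbp genes passed, near the share of all targets, with Smarca4 at 0.82, Nrip1 at 0.63 and Ncoa1 at -0.52. Of 14 other steroid and orphan receptors 3 were higher and 7 lower (median -0.31), and the stromal regulator Nr2f2 (-1.42) was among the latter.

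Each hormone-responsive list held genes called in both directions, and 72.2% to 78.9% of their tested genes passed. Of 19 estrogen-responsive genes 10 were higher in epithelium, with Muc1 (3.53), Padi1 (3.93) and Aqp5 (2.94), and 5 lower, with Cxcl12 (-2.79) and Igf1 (-2.39). Of 19 progesterone-responsive genes 5 were higher, with Msx1 (3.74) and Sox17 (2.75), and 9 lower, with the stromal factors Hoxa10 (-2.92), Hoxa11 (-2.68) and Hand2 (-2.48). Of 18 glucocorticoid-responsive genes 8 were higher, with Anxa1 (2.01) and Lcn2 (3.98), and 5 lower, with Zbtb16 (-1.75), Klf9 (-1.55) and Dusp1 (-1.44). Of 17 steroid-metabolising enzymes 4 were higher, with Hsd17b12 (0.85), and 8 lower, with the sulfatase Sts (-1.02) and Hsd11b2 (-2.79), which inactivates glucocorticoids. Between genotypes none of the tested genes of the 8 lists passed in either compartment. The lowest p belonged to the hormone-responsive transcription factor Klf9 in both (-1.09 ± 0.21, adjusted p = 0.120, in epithelium and -1.31 ± 0.28, adjusted p = 0.579, in stroma, by edgeR).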

How the data were processed

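The deposited count table holds each estimated count from the authors' pipeline, 1 value per target and region, with 0 raised to 1. The deposited normalised table holds signal values, which the authors made by dividing each region's counts by its upper quartile (Q3) after keeping targets detected in enough regions. The deposited per-region files hold probe counts with true zeros and other run data. They gave an alternative count, the aligned reads and the counts of the no-template controls. The median was 8.99 aligned reads per count. Submitters' processing notes name R 4.1.2 and Space Ranger, and the build mm10. The negative-probe row of the count table (5.27e-04% of the total) gave the negative-probe level and was then dropped from the targets.

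The 9 genes and all gene lists were chosen with earlier results of these data known. Counts of the first plate were summed per mouse and compartment and rounded, over the 14881 targets that the authors kept. Groups were compared with the quasi-likelihood test of edgeR 4.0.16 in R 4.3.3 with TMM scaling, two-sided, and p-values were adjusted over all targets by Benjamini-Hochberg, with a threshold of 0.05. Compartments were compared with the mouse as a block, since both come from the same animals. Within a mouse, the departures of epithelium and of stroma from their group means correlated at 0.152 to 0.521 (13 of 13 mice over 0.1). Levels per mouse are log2 CPM, with 2 as the prior count. Single genes and marker scores were compared by exact two-sided permutation over mice, and pairs of genes by 100000 permutations. Regions of a mouse are not replicates. The labels name 14 animals and the design text 13, and the labels were used. Ages carry no unit.

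Alternatives were DESeq2 1.42.0, upper-quartile scaling, other target filters, probe counts, subtraction of the negative probe, limma 3.58.1 on log2 Q3 means (pseudocount 1), both plates or the second alone, mice with at least 2 regions, no replicate block, age or marker scores as covariates, and each mouse left out. The age slopes, WT mice fitted alone, and pairs with age, fibroblast score or total count removed were added after seeing the data. From each gene list up to 3 genes of lowest p per direction could be named, or 1 where none passed, and for each of the 9 genes the 3 targets most like it. The edgeR step was tested on simulated data.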

Additional observations from a re-analysis of the deposited data

Results flagged for a closer look

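In 36 groups of mice (9 genes, 2 compartments, 2 genotypes), 2 values stood apart from the rest of their group, where chance gives about 1 in 20 groups. Nr3c2 in WT stroma was 3.55 log2 CPM in WT1, against 4.00 to 4.26 in the other 6 mice. Fkbp5 in PV stroma was 2.39 log2 CPM in PV1, against 4.04 to 4.85 in the other 5. Both genes lay near the negative-probe level, with at most 40 counts per WT mouse for Nr3c2 and as few as 2 counts per PV mouse for Fkbp5 in stroma. The genotype difference of none of the 9 genes differed between compartments or age classes past the adjusted threshold (edgeR).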

How the results depend on the processing

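Of 686 values under other settings, 602 kept their direction and their side of the threshold, 27 fell below it, 12 rose above it, 33 changed sign and 12 counts moved. The number of the 9 genes called between compartments, 5 in all mice, 4 in WT and 4 in PV mice, was 0, 0 and 0 on the second plate alone, where fewer regions had the markers of their label, and 0 in PV mice with both plates. With no replicate block the WT number was 2. Age slopes in WT mice, 0 and 0, became 1 and 2 with DESeq2 and 1 and 2 with WT mice fitted alone, in epithelium and stroma. The number of pairs, 2, was 1 without removal of genotype means, with both plates, or with age removed, and 3 with the log2 total count removed. With each mouse left out, the compartment numbers ran from 5 to 6, 4 to 4 and 3 to 5, the age slopes from 0 to 1 in each compartment, and the genotype comparisons and interactions stayed at 0.

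None of the values that changed sign passed the test after the change, and the cause was not tested. For PV against WT in stroma, Esr2 (-0.02) was 0.0123 with DESeq2, 0.00334 with upper-quartile scaling, 0.14 with the negative probe subtracted, 0.0744 with limma and 0.17 with age as a covariate. Age as a covariate gave Esr1 -0.12 and Pgr -0.0845 in stroma and Pgr -0.0381 in epithelium. In epithelium Fkbp4 (-0.04) was 0.00133 without a filter, 2.53e-04 with filterByExpr, 0.0817 in mice with at least 2 regions and 0.33 with the fibroblast score, which also gave Esr1 0.0642, Fkbp5 0.0241 and Tsc22d3 0.0676, and limma gave Nr3c1 -0.0715. Fkbp4 in stroma was 0.26 with both plates. Fkbp5 between compartments was -0.0392 with upper-quartile scaling. The second plate alone gave, for genotype, Esr2 0.19 and Pgr -0.22 in epithelium and Nr3c1 -0.0369, Nr3c2 -0.0444 and Fkbp4 0.38 in stroma, for compartments Esr2 0.14, Pgr 0.19, Nr3c2 1.97e-04 and Fkbp4 -0.0124 in all mice, Esr2 0.0646 in WT and Esr1 -0.0577, Esr2 0.25, Nr3c1 0.0498 and Fkbp4 -0.80 in PV mice, and 0.10 for the Nr3c1 interaction. Leaving out 1 mouse turned the sign of Esr1 (-0.28 to 0.0933), Nr3c1 (-0.0797 to 0.22), Greb1 (-0.46 to 0.0438), Fkbp4 (-0.29 to 0.0817) and Tsc22d3 (-0.79 to 0.0577) between genotypes in epithelium, Esr2 in stroma (-0.32 to 0.14) and Fkbp5 between compartments (-0.0252 to 0.23). Pgr between compartments passed without PV3, WT2 or WT7 (lowest adjusted p 0.0362 by edgeR), Esr1 in PV mice without PV2, PV3 or WT7, and Esr2 in PV mice kept its call only without PV3, PV4, WT5 or WT8, or WT4, which has no stroma. Precision is limited by 6 to 8 mice per group and by few counts for Esr2, Nr3c2, Fkbp5 and stromal Greb1.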
